A study of Mus musculus with 13 samples.

Results

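The 4 genes described here, Txn1, Ptgr1, Osgin2 and Aco1, take part in the handling of oxidants, reactive lipids and iron, and they were read as 4 named rows among the 56923 gene IDs counted in each library. RNA was sequenced from CD45-positive cells that flow cytometry sorted out of subcutaneous tumours of EL4, a mouse T-lymphoma line. There were 6 PSGL1_KO libraries, from tumours of EL4 cells in which PSGL1 had been knocked out, and 7 vector libraries, from tumours of EL4 cells carrying a vector. PSGL-1 is a selectin ligand of leukocytes, and the title of the series asks whether its presence on tumour cells restrains phagocytosis by macrophages. Mice of both groups were 6 to 8 weeks old when 500000 cells were injected under the skin of the flank, and the tumours were taken about 20 days later. Neither the host strain, nor the number of knockout clones, nor whether each library came from its own mouse is given in the sources used here, so a p-value measures only the spread between these libraries. EL4 is itself of the CD45-positive lineage, so a sort on CD45 does not by itself separate host immune cells from tumour cells.

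Thioredoxin, encoded by Txn1, is a small protein that passes electrons from NADPH to oxidised proteins and is recharged by thioredoxin reductase. Ptgr1 encodes prostaglandin reductase, which uses NADPH to inactivate reactive unsaturated aldehydes and oxidised eicosanoids, and both Txn1 and Ptgr1 are known targets of NRF2, the transcription factor of the oxidative stress response. Osgin2 encodes a relative of the oxidative-stress-induced growth inhibitor OSGIN1. Aco1 encodes cytosolic aconitase, which is an enzyme while it holds its iron-sulphur cluster and, having lost it, binds messenger RNAs of iron uptake and storage as iron regulatory protein 1.

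All 4 genes lie on chromosome 4 of GRCm38 and code for protein. Txn1 (ENSMUSG00000028367.6) spans 57943373 to 57956411 on the minus strand, with 1051 bp of exon. Ptgr1 (ENSMUSG00000028378.7) spans 58965439 to 58987119 on the minus strand, with 2296 bp of exon. Osgin2 (ENSMUSG00000041153.10) spans 15997121 to 16013888 on the minus strand, with 5571 bp of exon. Aco1 (ENSMUSG00000028405.10) spans 40143081 to 40198338 on the plus strand, with 4496 bp of exon. None of the 4 shares exon sequence with another annotated gene on either strand. Of the 50-base windows of the Txn1 transcript, 2.50% occur also in the pseudogene Txn-ps1, and no window of the other 3 genes occurs in another gene.

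The stretch of the Txn1 coding sequence that encodes the active site of thioredoxin is shown because it holds the pair of cysteines that carry the electrons. It runs from base 79 to base 117 of the 318 coding bases (stop codon included) in GENCODE M21, and the capitals mark the cysteine codons 32 and 35.
Txn1 active site: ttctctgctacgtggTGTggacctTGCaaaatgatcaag

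The 250 bases before the RefSeq start of Txn1 and of Ptgr1 are shown because these genes had the most similar profiles of the 4 over the 13 libraries. They are RefSeq sequences on GRCm38.p6, given on the strand of the gene, chr4:57956412-57956661 for Txn1 and chr4:58987079-58987328 for Ptgr1. RefSeq places the start of Ptgr1 inside the GENCODE span given above, and that of Aco1 likewise, so those windows overlap the GENCODE spans. Capitals mark the GC box, GGGCGG or its reverse complement CCGCCC, the element bound by Sp1-family factors.
Txn1 upstream: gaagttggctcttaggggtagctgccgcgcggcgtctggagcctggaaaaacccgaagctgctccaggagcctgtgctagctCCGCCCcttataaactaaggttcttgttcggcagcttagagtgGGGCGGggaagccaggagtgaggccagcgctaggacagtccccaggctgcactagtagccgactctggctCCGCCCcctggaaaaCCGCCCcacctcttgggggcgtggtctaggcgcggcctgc
Ptgr1 upstream: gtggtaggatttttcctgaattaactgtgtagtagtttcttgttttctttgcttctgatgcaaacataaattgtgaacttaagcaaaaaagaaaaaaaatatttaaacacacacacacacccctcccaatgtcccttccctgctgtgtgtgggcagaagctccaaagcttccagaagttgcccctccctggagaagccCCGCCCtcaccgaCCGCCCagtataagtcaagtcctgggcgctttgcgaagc
The Txn1 window held 4 GC boxes and the Ptgr1 window 2, and the matching window of Aco1 held 3. Of all 32851 windows of this length, 32.7% held at least 1 GC box and 8.47% held 3 or more. The core of the antioxidant response element, TGACNNNGC on either strand, was at 0 matches in the 3 windows, and 10.2% of all windows held it. The RefSeq table matched 3 of the 4 genes, Osgin2 being the one without a window.

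Gene IDs received 3710817 to 5712566 counts per library, 10.5% to 12.5% of what each count file records. Over most of the genome the deposited names did not go with the counts: the median over 259 genes that nearly all cells use was 0.447 CPM (per 1000000 counts on gene IDs), while the 13 such genes inside 5 stretches were at 337.1 CPM or more. A stretch was kept only if every such gene in it reached 20 CPM, so high levels there were partly fixed by the choice. The 4 redox genes lie in the 2 of these name-checked stretches that are on chromosome 4. Only the 1390 IDs of the stretches are called by name, so neither the ID of the targeted gene nor the defining CD45 and lineage markers, 0 of 6 of which lie there, could check the labels. The numbers in the count files' names start with 3 for replicates 1 and 2 of both groups and with 7 for all others. What the numbers stand for is not given. Comparisons of the 4 genes between the groups are shown within both sets. Mitochondrial IDs took 10.0% to 34.5% of gene counts, the highest share being in vector replicate 5. That library also stood apart from every other vector library over all IDs, with a mean chi-square per ID of 54.3 to 86.8, against 3.02 to 10.3 among vector replicates 3, 4, 6 and 7.

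Txn1 was by far the most abundant of the 4 messages. Per kilobase of exon it averaged 2010 ± 455 CPM (SD, n = 13), against 39.0 ± 8.40 for Aco1, 37.6 ± 11.1 for Ptgr1 and 7.98 ± 1.49 for Osgin2. Txn1 was thus 252 times as abundant as Osgin2 on this scale. The scale divides by all annotated exon of a gene. The longest transcripts of Osgin2 (3432 bp) and Aco1 (3832 bp) are shorter than that, and on those lengths both genes would stand higher. Txn1 was above Aco1 in 13 of 13 libraries, and Ptgr1 was above Osgin2 in 13 of 13. Aco1 and Ptgr1 changed places: Aco1 was the higher in 7 of 13 libraries, and their levels do not differ beyond their spread. Together the 4 genes took 0.130% to 0.318% of the counts on gene IDs.

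**Figure D1:**
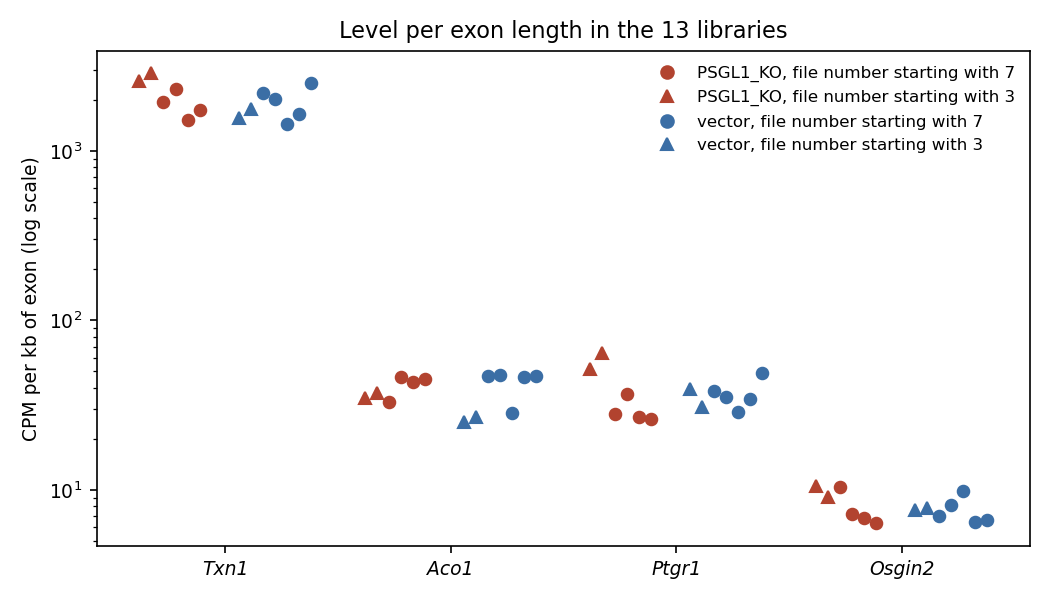
Level of each gene per kilobase of exon (CPM per kb, log scale) in the 13 libraries, with PSGL1_KO in red on the left and vector in blue on the right of each gene; triangles are libraries whose file number starts with 3 and circles those starting with 7. Txn1 lies far above the others, Aco1 and Ptgr1 share a range, and Osgin2 is lowest.

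Over all 13 libraries, none of the 4 genes differed between the groups beyond the spread of the libraries. In the edgeR quasi-likelihood test with Benjamini-Hochberg adjustment, 0 of 4 passed an adjusted p of 0.05, where 14.5% of all 10422 IDs tested did (9.02% higher and 5.49% lower in PSGL1_KO), and at an unadjusted p under 0.05 also 0 of 4 passed, against 27.7% of all IDs. Of the 430 name-checked IDs tested, 19.1% were called higher. DESeq2 too called 0 of 4. Levels below are CPM after TMM scaling, and each log2 fold change is PSGL1_KO minus vector.

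Thioredoxin message was abundant in every library. Txn1 had 1591 CPM in the lowest, 2236 at the median and 3015 in the highest of the 6 PSGL1_KO libraries, against 1505, 1856 and 2632 CPM in the 7 vector libraries. Only 2 PSGL1_KO libraries, replicates 1 and 2, stood above every vector library, and the groups overlap. The means were 2273 ± 545 CPM in PSGL1_KO and 1976 ± 402 CPM in vector (SD, n = 6 and 7), a log2 fold change of 0.20 ± 0.18 (SE) with a 95% interval of -0.18 to 0.58 and an edgeR adjusted p of 0.516.

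The reductase gene Ptgr1 had the widest range. It had 60.3 CPM in the lowest, 74.0 at the median and 146.4 in the highest PSGL1_KO library, against 65.8, 81.0 and 111.9 CPM in vector libraries. PSGL1_KO libraries lay on both sides of the vector range, 2 above all vector libraries and 3 below all of them. The means were 89.2 ± 35.7 CPM in PSGL1_KO and 83.9 ± 15.2 CPM in vector (SD, n = 6 and 7), and the log2 fold change of 0.09 ± 0.21 (SE) had a 95% interval of -0.36 to 0.53 (edgeR adjusted p = 0.841).

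Osgin2 was the least abundant and the least variable. It had 35.4 CPM in the lowest, 45.2 at the median and 58.4 in the highest PSGL1_KO library, against 36.0, 42.5 and 54.8 CPM in vector libraries. The ranges nearly coincide, and its counts, 144 to 310 per library, were the smallest of the 4. Its means were 46.7 ± 10.3 CPM in PSGL1_KO and 42.6 ± 6.41 CPM in vector (SD, n = 6 and 7), a log2 fold change of 0.13 ± 0.16 (SE), 95% interval -0.21 to 0.48 (edgeR adjusted p = 0.658).

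The aconitase gene Aco1 had 148.9 CPM in the lowest, 180.7 at the median and 207.4 in the highest PSGL1_KO library, against 113.6, 207.9 and 213.0 CPM in vector libraries. Every PSGL1_KO library lay inside the vector range and below the vector median. Its vector libraries fell into a low set, replicates 1, 2 and 5, and a high set of 4. Means were 179.6 ± 24.8 CPM in PSGL1_KO and 171.9 ± 48.0 CPM in vector (SD, n = 6 and 7), with a log2 fold change of 0.06 ± 0.18 (SE), 95% interval -0.32 to 0.44 (edgeR adjusted p = 0.863).

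**Figure D2:**
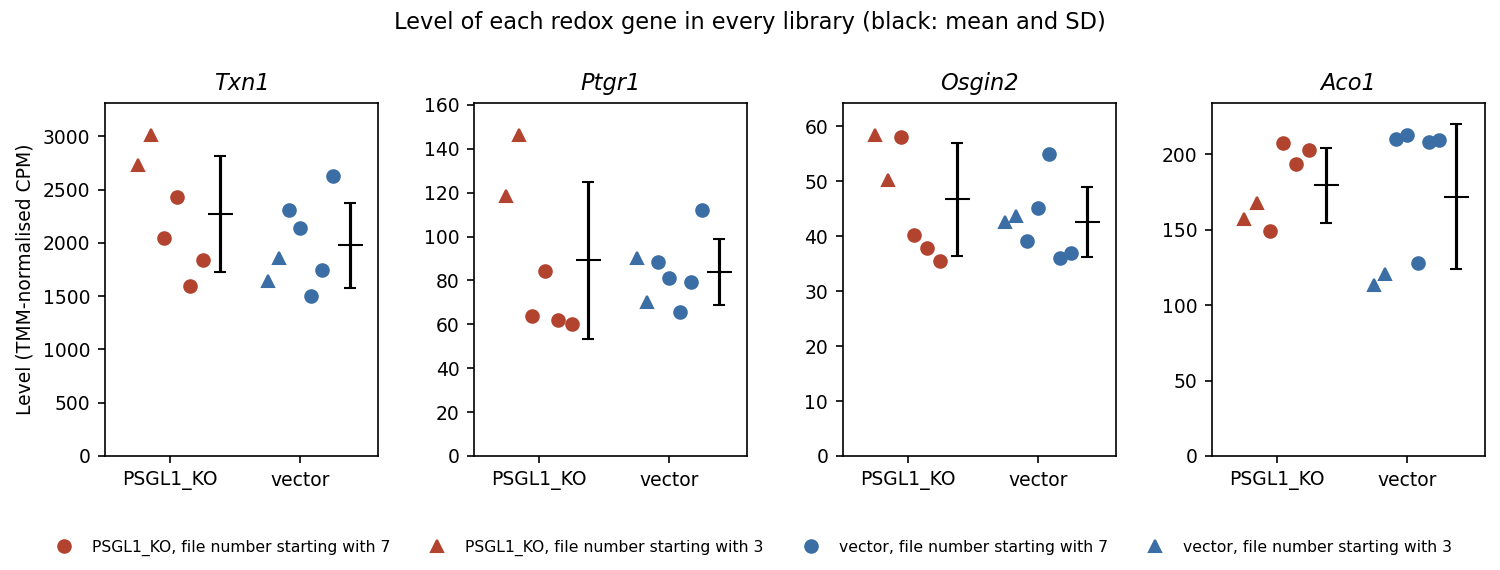
Level of each gene (TMM-normalised CPM, axis from 0) in every library, PSGL1_KO left and vector right, with triangles for file numbers starting with 3 and circles for 7; black lines are the mean and SD. The triangles of PSGL1_KO lie above those of vector in all 4 panels, while the circles of the groups overlap.

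The values within each set of file numbers differed from the pooled result. Among the 4 libraries whose number starts with 3, both PSGL1_KO libraries stood above both vector libraries for 4 of 4 genes, an order that 27.3% of all IDs tested also had. In this set 3 of 4 genes passed the edgeR test as higher in PSGL1_KO, where 23.2% of all IDs tested were called (12.5% higher, 10.8% lower) and 29.8% of the name-checked IDs were called higher. Among the 9 libraries whose number starts with 7, 0 of 4 genes passed, where 20.8% of all IDs were called (11.2% higher, 9.63% lower). With 2 libraries against 2, the test with numbers starting with 3 took its estimate of the spread almost wholly from all IDs. Its p-values therefore say little of a gene's own spread between libraries.

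For Txn1 the values with file numbers starting with 3 were 2726 and 3015 CPM in PSGL1_KO, against 1647 and 1856 CPM in vector. The groups do not overlap, and the log2 fold change was 0.74 ± 0.19 (SE) with an edgeR adjusted p of 0.00115. With file numbers starting with 7, Txn1 had 2044, 2427, 1591 and 1836 CPM in PSGL1_KO, against 2312, 2135, 1505, 1744 and 2632 CPM in vector. These overlap throughout, with a log2 fold change of -0.07 ± 0.16 (SE) and an edgeR adjusted p of 0.799.

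For Ptgr1 the signs of the estimates were opposite. It had 118.3 and 146.4 CPM in PSGL1_KO with numbers starting with 3, against 90.4 and 70.3 CPM in vector, a log2 fold change of 0.75 ± 0.20 (SE) with an edgeR adjusted p of 0.00172. With numbers starting with 7 it had 64.0, 84.1, 61.9 and 60.3 CPM in PSGL1_KO, against 88.4, 81.0, 65.8, 79.3 and 111.9 CPM in vector. There PSGL1_KO replicates 3, 5 and 6 lay below the whole vector range, and the log2 fold change of -0.34 ± 0.16 (SE) had a 95% interval of -0.67 to -0.01 but did not pass after adjustment (edgeR adjusted p = 0.140).

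The difference itself was tested as an interaction of group and file number. For Ptgr1 the effect with numbers starting with 7 was lower than that with 3 by a log2 difference of -1.05 ± 0.28 (SE), with an edgeR adjusted p of 0.0491, where 2.11% of all IDs passed, 0.969% of all IDs in that direction. This call was narrow: it was lost when the libraries were scaled on the name-checked stretches (-0.85, edgeR adjusted p = 0.0759), when dispersions were estimated without the robust option (adjusted p = 0.0575), and when vector replicate 1, 2, 3, 4 or 7 or PSGL1_KO replicate 2, 5 or 6 was left out, with adjusted p over all 13 such omissions from 0.00962 to 0.287. The same difference was -0.78 for Txn1 (edgeR adjusted p = 0.121), -0.52 for Aco1 (adjusted p = 0.291) and -0.32 for Osgin2 (adjusted p = 0.615), none of them past the threshold. Its median was 0.09 over all IDs and -0.17 over the 430 name-checked IDs. Over the 9 other redox genes named below the median was -0.41, with 1 of 9 positive. It was -0.74 for Sem1, -0.54 for Ankrd46 and -0.37 for Ywhaz, the 3 genes closest to Ptgr1 in profile, none past the threshold. Without vector replicate 5, the library with the highest mitochondrial share, the difference passed for Txn1 (-0.93, edgeR adjusted p = 0.0230) and for Aco1 (-0.69, adjusted p = 0.0335). The share of all IDs passing in that fit is not given here, so these calls have no background beside them. Its median difference was 0.04 over all IDs and -0.24 over the name-checked IDs.

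Aco1 also differed with the file number itself. With numbers starting with 3 it had 157.2 and 167.9 CPM in PSGL1_KO, against 113.6 and 120.4 CPM in vector, and the log2 fold change of 0.51 ± 0.19 (SE) passed narrowly (edgeR adjusted p = 0.0416). With numbers starting with 7 it had 148.9, 207.4, 193.6 and 202.7 CPM in PSGL1_KO, against 210.2, 213.0, 128.1, 207.9 and 209.7 CPM in vector. Vector replicate 5, at 128.1 CPM, lay apart from the other 4 vector libraries there, and the log2 fold change was -0.05 ± 0.15 (SE) (edgeR adjusted p = 0.855).

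Osgin2 passed in neither set. It had 58.4 and 50.3 CPM in PSGL1_KO with numbers starting with 3, against 42.5 and 43.6 CPM in vector, a log2 fold change of 0.37 ± 0.23 (SE) (edgeR adjusted p = 0.244). With numbers starting with 7 it had 58.0, 40.2, 37.8 and 35.4 CPM in PSGL1_KO, against 39.0, 45.1, 54.8, 36.0 and 36.9 CPM in vector. PSGL1_KO replicate 3 and vector replicate 5 were the high libraries of their groups, and the log2 fold change was 0.01 ± 0.17 (SE) (edgeR adjusted p = 0.976).

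Between file numbers, with the group kept as a term, Aco1 was higher with 7 than with 3 by a log2 difference of 0.47 ± 0.15 (SE) (edgeR adjusted p = 0.0146). Ptgr1 was lower with 7 than with 3, by a log2 difference of -0.46 ± 0.18 (SE) (edgeR adjusted p = 0.0458). Txn1, at -0.16, and Osgin2, at -0.18, did not pass (adjusted p of 0.486 and 0.360). In this comparison 39.8% of all IDs were called, so 2 of 4 genes is near the background.

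The direction of all 4 genes depended on the scaling. TMM scaling on all IDs left the median log2 fold change of all IDs at -0.01 and that of the 430 name-checked IDs tested at 0.18; with file numbers starting with 3 these medians were -0.04 and 0.37. When libraries were scaled on the nuclear IDs of the name-checked stretches instead, the median of all IDs moved to -0.20 over 13 libraries and to -0.41 with numbers starting with 3. On that scale the 13-library log2 fold changes were -0.03 for Txn1, -0.16 for Ptgr1, -0.08 for Osgin2 and -0.13 for Aco1, each of the opposite sign to the value above and none past the threshold. With numbers starting with 3, Txn1 still passed at 0.37 (edgeR adjusted p = 0.0394), while Ptgr1 at 0.38 (adjusted p = 0.120), Aco1 at 0.13 (adjusted p = 0.614) and Osgin2 at 0.00 (adjusted p = 0.989) did not. With numbers starting with 7, Ptgr1 then passed as lower in PSGL1_KO, at -0.43 (edgeR adjusted p = 0.0448). Joining this scaling with a file-number set was chosen after seeing the data. How many of all IDs were lower under it is given in the closing section.

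**Figure D3:**
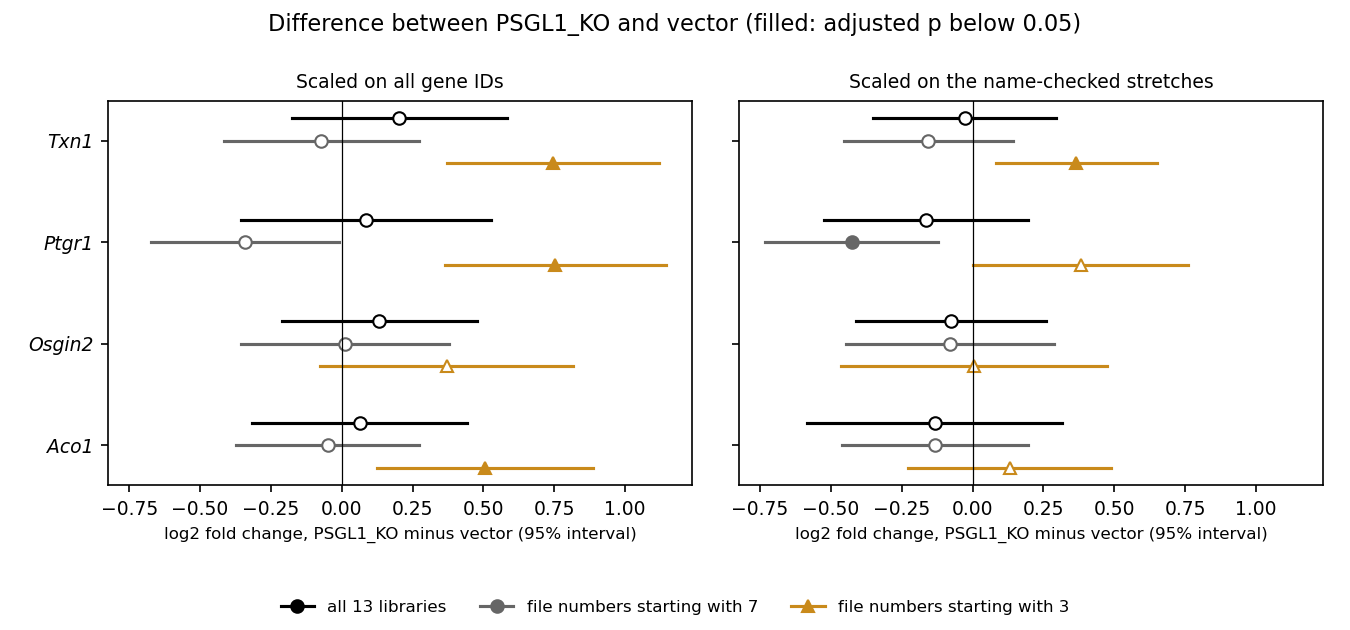
Log2 fold change of each gene (PSGL1_KO minus vector) with its 95% interval, over all 13 libraries and within each file-number set, scaled on all gene IDs (left) and on the name-checked stretches (right); filled symbols passed an adjusted p of 0.05. With file numbers starting with 3, Txn1 is filled in both panels (0.74 and 0.37), and Ptgr1 and Aco1 in the left panel only.

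Ratios of the 4 genes within a library do not depend on scaling. The log2 ratio of Txn1 to Ptgr1 counts was 4.72 ± 0.25 in PSGL1_KO and 4.55 ± 0.19 in vector (SD, n = 6 and 7). The 6 possible pairs differed between the groups by -0.10 to 0.17 on the log2 scale, and none passed a two-sided exact permutation test over libraries (p from 0.190 to 0.974, Benjamini-Hochberg adjusted over the 6 pairs 0.923 to 0.974). Within file numbers, where no test was run, the ratios moved more. The Txn1 to Ptgr1 log2 ratio differed between the groups by 0.27 with 7 and by -0.01 with 3, and Txn1 to Osgin2 by -0.06 with 7 and 0.38 with 3. Ratios of Ptgr1 changed sign between the sets, with Ptgr1 to Osgin2 at -0.33 with 7 and 0.39 with 3 and Ptgr1 to Aco1 at -0.30 with 7 and 0.25 with 3. Txn1 to Aco1 was at -0.02 with 7 and 0.24 with 3, and Osgin2 to Aco1 at 0.04 with 7 and -0.14 with 3.

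The 4 genes did not share a single profile. Likeness was measured as the mean absolute difference of log2 CPM over the 13 libraries, each profile centred on its own mean. Txn1 and Ptgr1 were the most alike of the 4, at 0.181, and Osgin2 and Aco1 the least, at 0.485. The genes closest to Txn1 among the 342 protein-coding genes compared were Golph3 at 0.135, Atp6v1c1 at 0.140 and Ywhaz at 0.144, against a median of 0.339 over all 342. Golph3 encodes a Golgi phosphoprotein, Atp6v1c1 a subunit of the vacuolar proton pump and Ywhaz a 14-3-3 adaptor protein. Closest to Ptgr1 were Sem1 at 0.153, a proteasome subunit, Ankrd46 at 0.160 and again Ywhaz at 0.171, with a median of 0.359. Osgin2 was closest to Smim8 (0.131), Invs (0.140) and Nudt2 (0.141), with a median of 0.321. Aco1 was closest to Gne, the first enzyme of sialic acid synthesis, at 0.125, and also close to Rpp25l at 0.163, with a median of 0.467. The libraries' depth and composition are shared by all genes, so these values are a description only.

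The next protein-coding genes on either side give the local context. Next to Txn1 lie D630039A03Rik, with a log2 fold change of 0.02 (edgeR adjusted p = 0.944), and Txndc8, a testis thioredoxin relative with 0 to 2 counts. Dnajc25, 7943 bp from Ptgr1, was at 0.40 (edgeR adjusted p = 0.0572), and Zkscan16 on the other side had 0 to 1 counts. Osgin2 lies between Nbn, a DNA-break repair gene at 0.43 (adjusted p = 0.134), and Ripk2, a kinase of innate immune signalling at 0.05 (adjusted p = 0.846). Ddx58, the viral RNA sensor RIG-I, 5435 bp from Aco1, was at 0.39 (edgeR adjusted p = 0.114), and 1700009N14Rik had 0 to 2 counts. With file numbers starting with 3 Ddx58 passed, at 0.74 (edgeR adjusted p = 0.00290), where 29.8% of the name-checked IDs were called higher. With 7 it was at 0.28 (adjusted p = 0.240). The other neighbours tested passed in neither set. With 3 they were at 0.64 for Nbn, 0.52 for Dnajc25, 0.30 for Ripk2 and -0.06 for D630039A03Rik. With the group as the only term none of the 5 neighbours tested passed over 13 libraries, where 14.5% of all IDs did. With the file number as a covariate Dnajc25 (0.40, edgeR adjusted p = 0.0159) and Ddx58 (0.41, adjusted p = 0.0260) passed. That fit also called more of all IDs than the group alone did, as counted in the closing section.

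Of 147 other redox genes on 6 lists (the thioredoxin system, NRF2 targets, NADPH use and carbonyl reduction, antioxidant enzymes, iron and iron-sulphur proteins, and the OSGIN family), 11 lie in the name-checked stretches and 9 had enough counts to test. Over 13 libraries 2 of 9 were higher and 0 lower in PSGL1_KO, with a median log2 fold change of 0.01, and 2 of 9 is near the 19.1% of name-checked IDs called higher; Txndc8 and the paraoxonase Pon1, at 0 to 1 counts, were not tested. NRF2 targets, iron proteins and the OSGIN family added 0 genes beyond the 4 themselves.

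Erp44, a thioredoxin-family chaperone that retains client proteins in the early secretory pathway, was the other thioredoxin-system gene tested. It had 362.0 CPM in the lowest, 409.9 at the median and 525.5 in the highest PSGL1_KO library, against 245.0, 279.2 and 319.7 CPM in vector libraries. All 6 PSGL1_KO libraries were above all 7 vector libraries, as 4.14% of all IDs were. Erp44 averaged 418.6 ± 62.6 CPM in PSGL1_KO and 284.5 ± 31.4 CPM in vector (SD, n = 6 and 7), a log2 fold change of 0.56 ± 0.13 (SE) with an edgeR adjusted p of 0.00797, and it passed within both file-number sets, at 0.46 with 7 and 0.73 with 3. On the scale of the name-checked stretches it was at 0.35 (edgeR adjusted p = 0.0307) over 13 libraries, and at 0.35 with numbers starting with 3, where it no longer passed (adjusted p = 0.0727).

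Pon3, a lactone-hydrolysing paraoxonase with antioxidant action, was the antioxidant gene called. It had 8.23 CPM in the lowest, 20.0 at the median and 27.5 in the highest PSGL1_KO library, against 6.56, 7.76 and 12.5 CPM in vector libraries. PSGL1_KO replicate 3 was the low library and lay inside the vector range, while the other 5 were above it. Pon3 averaged 19.8 ± 6.42 CPM in PSGL1_KO and 8.85 ± 2.33 CPM in vector (SD, n = 6 and 7), a log2 fold change of 1.16 ± 0.25 (SE) with an edgeR adjusted p of 0.00359, and it passed at 1.12 with file numbers starting with 7 and 1.21 with 3. On the scale of the name-checked stretches it was at 0.95 (edgeR adjusted p = 0.0104), and at 0.82 (adjusted p = 0.0533) with numbers starting with 3.

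The other 7 genes did not pass over 13 libraries. Among them Decr1, a mitochondrial dienoyl-CoA reductase that uses NADPH, was at 0.44 (edgeR adjusted p = 0.170) and passed with file numbers starting with 3 (0.76, adjusted p = 0.00275). Grhpr, the glyoxylate and hydroxypyruvate reductase, was at -0.28 (edgeR adjusted p = 0.577) and passed as lower with numbers starting with 7 (-0.39, adjusted p = 0.0493). Aldh1b1, a mitochondrial aldehyde dehydrogenase, was at -0.22, and Nadk2, the mitochondrial NAD kinase, at -0.04. Pon2, an intracellular paraoxonase, was at -0.14, the ribonucleotide reductase subunit gene Rrm2b at 0.01 and the DNA-end repair gene Aptx at 0.07. Exons of Pon2 and Rrm2b overlap an opposite-strand gene over 9.27% and 8.04% of their length, and the strand setting of the counting is not given, so reads of each pair cannot be told apart. With file numbers starting with 3 the median of the 9 genes was 0.52, beside 0.37 for all name-checked IDs, and with 7 it was -0.13, beside 0.09.

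**Figure D4:**
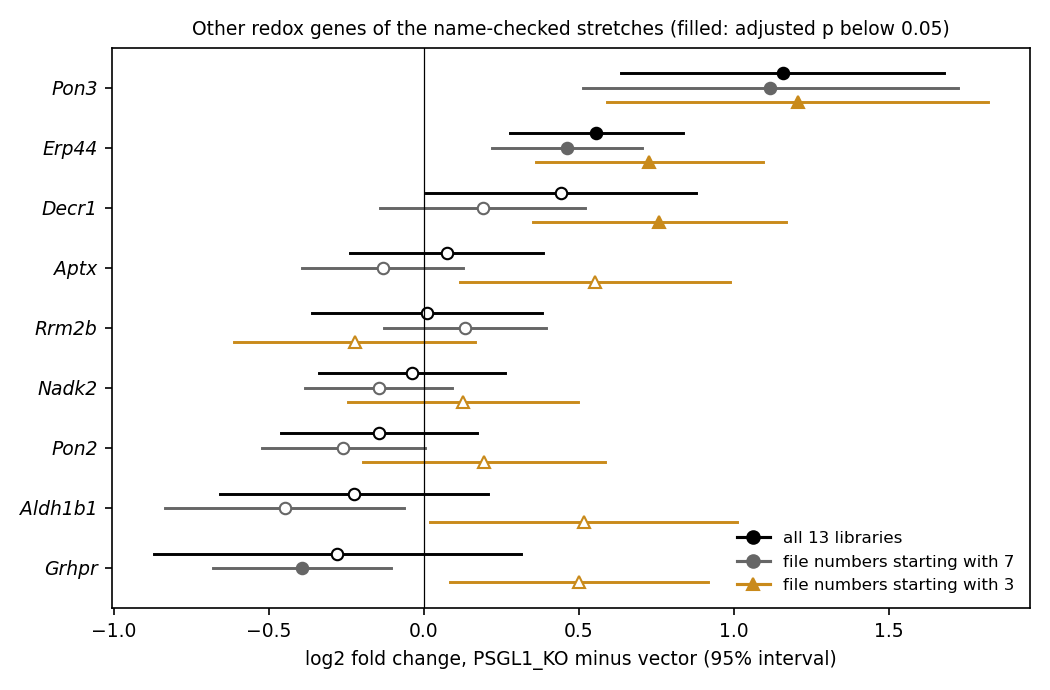
Log2 fold change (PSGL1_KO minus vector) with its 95% interval for the 9 other redox genes tested, over all 13 libraries and within each file-number set; filled symbols passed an adjusted p of 0.05. Pon3 and Erp44 are filled in all 3 rows, and most other genes lie further right with file numbers starting with 3 than with 7.

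Some markers of other cell types differed between the groups, and their part in these results was not tested. In bulk RNA, fewer cells of a type and less RNA per cell cannot be told apart. The marker lists were chosen with earlier results of these data known, so counts of markers called are a description only. All 4 of 4 macrophage markers (Lyn, Tfec, Atp6v0d2, Cd72) were higher in PSGL1_KO, where 19.1% of the name-checked IDs were called higher. Their summed level was 503.8 to 805.1 CPM in PSGL1_KO and 92.2 to 223.4 CPM in vector. On the scale of the name-checked stretches 3 of 4 passed, Atp6v0d2 being at 0.81 (edgeR adjusted p = 0.0958). Of 4 lymphoma or T-cell markers, Sit1 was lower and Bach2 higher, and the sum was 362.7 to 556.9 CPM in PSGL1_KO and 433.6 to 606.4 CPM in vector. The B-cell list, Pax5 and Cd72, summed to 152.7 to 321.5 CPM in PSGL1_KO and 29.9 to 77.5 CPM in vector, with Cd72 the one gene called; Cd72 is also on the macrophage list, and 41.6% of its exon length overlaps Tesk1 on the opposite strand. Stromal markers were present although the cells were sorted on CD45: 5 of 6 lie in the name-checked stretches, and they summed to 858.4 to 4243 CPM in PSGL1_KO and 811.8 to 2299 CPM in vector, with 0 of 5 called over 13 libraries. With file numbers starting with 3, where Txn1, Ptgr1 and Aco1 were higher, 3 of 5 stromal markers were called higher (1919 to 3662 CPM in PSGL1_KO, 1478 to 1632 CPM in vector), and 4 of 4 macrophage markers (503.8 to 519.2 CPM in PSGL1_KO, 92.2 to 125.7 CPM in vector), against 29.8% of the name-checked IDs. On the scale of the name-checked stretches the stromal count in that set was 2 of 5. With 7, where none of the 4 redox genes was called, 0 of 5 stromal and 4 of 4 macrophage markers were. There 11.2% of all IDs were called higher, beside 12.5% with 3. The stromal sum with 7 was 858.4 to 4243 CPM in PSGL1_KO and 811.8 to 2299 CPM in vector. Log2 fold changes with 7 and 3 were 0.87 and 0.91 for Col1a2 (SE 0.54 and 0.19) and 0.90 and 0.57 for Tpm2. They were 0.35 and 0.93 for Met, 0.03 and 0.81 for Cav1, and -0.13 and -0.04 for Cav2. The difference between the sets passed for 0 of 5. The lymphoma or T-cell sum with 7 was 362.7 to 471.9 CPM in PSGL1_KO and 473.6 to 606.4 CPM in vector. With 3 it was 449.3 to 556.9 CPM in PSGL1_KO and 433.6 to 455.5 CPM in vector. Tox was the largest part of this sum, averaging 307.0 CPM in PSGL1_KO and 405.4 CPM in vector with 7. There the groups overlapped for Tox and for Il7r, while Sit1 was called lower (-0.82) and Bach2, a small part of the sum, higher (1.36). Of that list Tox, a transcription factor of T-cell development, was at -0.41 with 7 (edgeR adjusted p = 0.0320) and at 0.25 with 3 (adjusted p = 0.340), and the difference between the sets, -0.63, did not pass (adjusted p = 0.154).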

How the data were processed

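The authors deposited raw read counts per gene ID, 1 file a library; the submitters' processing notes name HISAT2, SAMtools and HTSeq and, as the build, mm10, with versions, annotation release and strand setting not given in the sources used here. The 5 summary rows (no feature 67.3% to 75.4% of all rows' totals) were left out of library sizes and tests. Symbols matched 52073 of 56923 IDs; positions are from GENCODE M21. Names were used only in 5 stretches found by a 2-state hidden Markov model over CPM classes (limits 2, 20 and 100) of protein-coding genes, at least 5 Mb long, with 20 or more genes and every housekeeping gene at 20 CPM or more, so stretches were chosen by high counts over all libraries. No library pair of a group agreed within sampling noise (lowest mean chi-square per ID 3.02).

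The main fit used edgeR 4.0.16 in R 4.3.3 on all 13 libraries: TMM, filterByExpr (10422 IDs kept), robust quasi-likelihood test of the group, two-sided, Benjamini-Hochberg over all IDs, threshold 0.05; it was tested on simulated data. The same fit was run within each first digit of the file number and as an interaction. Alternatives were DESeq2 1.42.0, other scalings, no filter, no robust dispersion, the file number as covariate, the replicate block and leaving out each library. The 4 members and the gene lists were chosen with earlier results of these data known. Named besides them are every listed redox gene of the stretches, the flanking protein-coding genes and the 3 genes of most similar profile for each member. One of these is not reported here. Figures were drawn with matplotlib; exact permutation tests used scipy.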

Additional observations from a re-analysis of the deposited data

Results flagged for a closer look

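The PSGL1_KO effect on Ptgr1 differed between the file-number sets, by a log2 difference of -1.05 (number starting with 7 minus starting with 3) in a test of the interaction itself (edgeR adjusted p = 0.0491). Of the 18 alternatives run on it, 10 lost the call: scaling on the name-checked stretches (adjusted p = 0.0759), no robust dispersion (adjusted p = 0.0575) and 8 of the 13 omissions of a single library (adjusted p up to 0.287). The log2 fold changes behind it were -0.34 with 7 and 0.75 with 3. The same difference had a median of -0.41 over the 9 other redox genes tested, with 0 of 9 past the threshold. Over the 430 name-checked IDs its median was -0.17. What the file numbers stand for is not given, and the cause was not tested. For the levels of the 4 genes in each group, 8 sets in all, Dixon's test at 95% marked 0 libraries; this says nothing of other genes, over which vector replicate 5 stood apart.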

How the results depend on the processing

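Over 13 libraries, 0 of the 4 genes passed under any alternative that kept all libraries or left out 1, but the sign was not stable. Scaling on the name-checked stretches gave -0.029 for Txn1, -0.16 for Ptgr1, -0.077 for Osgin2, -0.13 for Aco1, -0.14 for Aptx and -0.18 for Rrm2b. With the file number as a covariate Ptgr1 was at -0.0055. Leaving out each library gave 0.11 to 0.30 for Txn1, -0.10 to 0.20 for Ptgr1 (negative without PSGL1_KO replicate 1 or 2), 0.06 to 0.22 for Osgin2, -0.021 to 0.13 for Aco1 (negative without vector replicate 1 or 5), -0.12 to 0.047 for Nadk2 and -0.053 to 0.14 for Rrm2b. Erp44 stayed at 0.49 to 0.61 (edgeR adjusted p 0.00703 to 0.0248) and Pon3 at 1.05 to 1.33 (0.000287 to 0.0112).

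File numbers starting with 7 gave -0.072 for Txn1, -0.34 for Ptgr1, -0.050 for Aco1 and -0.13 for Aptx. With scaling on the stretches as well, a combination chosen after seeing the data, these were -0.16, -0.43, -0.13 and -0.22, and Osgin2 was at -0.080. Numbers starting with 3 gave 0.74 for Txn1, 0.75 for Ptgr1, 0.51 for Aco1, 0.52 for Aldh1b1, 0.50 for Grhpr, 0.13 for Nadk2, 0.19 for Pon2 and -0.22 for Rrm2b; with scaling on the stretches Txn1 was at 0.37, Aldh1b1 at 0.15, Grhpr at 0.11 and Rrm2b at -0.59, the last passing as lower (edgeR adjusted p = 0.0118).

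Main calls over all IDs were 940 higher and 572 lower. Scaling on the stretches gave 589 higher and 1133 lower, the file-number covariate 1435 and 1254; numbers starting with 7 gave 1038 lower, or 1345 with the stretch scaling, and numbers starting with 3 gave 1135 lower, or 549 higher and 2693 lower with it. With numbers starting with 7, 2 of the 9 listed redox genes were higher and 1 lower, where 11.2% and 9.63% of all IDs were. With the stretch scaling 2 were higher and 2 lower. With numbers starting with 3, 3 were higher and 0 lower, where 12.5% and 10.8% of all IDs were. In that set 29.8% of the name-checked IDs were higher. With the stretch scaling there 0 were higher and 1 lower. Leaving out each library gave 753 to 1034 IDs higher and 428 to 607 lower.

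The interaction for Ptgr1 was -0.85 with scaling on the stretches and -1.05 without robust dispersion, neither past the threshold, and -1.24 to -0.94 with 1 library left out. That for Txn1 passed with no filter on low counts (-0.78, edgeR adjusted p = 0.0257), a fit for which the share of all IDs passing is not given here. It ranged from -0.93 to -0.69 with 1 library left out, and that for Aco1 from -0.69 to -0.47. The causes were not tested.

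Same-numbered libraries did not pair: the correlations of their deviations ran from -0.05 to 0.60 over 6 pairs, and 2 of 6 PSGL1_KO libraries correlated best with their own number. With the replicate block Txn1 was at 0.28, Ptgr1 at 0.11, Osgin2 at 0.10 and Aco1 at 0.17, none past the threshold, with 1212 IDs higher and 881 lower. Osgin2, with as few as 144 counts in a library, has the least depth.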
